A study of Mus musculus with 4 samples.

Results

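The genes described here encode the subunits of the mitochondrial respiratory chain and of the ATP synthase from the nuclear genome. They were chosen by symbol in the gene list of the KPCA.A library: symbols that begin with Nduf followed by a, b, s, v or c, with Uqcr, with Cox and a digit from 4 to 8 or with Atp5, and the symbols Sdha, Sdhb, Sdhc and Sdhd, leaving out symbols that end in -ps. The rule took 93 of 32285 genes: 38 of complex I, 8 complex I assembly factors (Ndufaf), 4 of complex II, 8 of complex III, 18 of complex IV and 17 of the ATP synthase. The rule used no expression value. The ascites library was matched by gene identifier, and all 93 were found there.

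By droplet single-cell RNA sequencing of transcript 3' ends, the study profiled KPCA ascites and omental tumors of 3 related mouse lines, named KPCA.A, KPCA.B and KPCA.C. Each omental library pooled 4 tumors from C57BL/6J mice, dissociated with collagenase and DNase, and there was 1 library per line and 1 of ascites. The labels give an age of 8 weeks for the tumors and 9 weeks for ascites, and do not tie the ascites to any of the lines. The labels describe the cells as fallopian tube epithelial, and KPCA lines are known as genetically engineered derivatives of such cells. With 1 library per line, a line and its library cannot be told apart.

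Complex I takes electrons from NADH and complex II from succinate. Both pass them through ubiquinone to complex III, and cytochrome c carries them on to complex IV, which reduces oxygen. Complexes I, III and IV pump protons across the inner mitochondrial membrane, and the ATP synthase uses that gradient to make ATP. Most subunits come from nuclear genes, a few from mitochondrial DNA, and several complex IV subunits have paired isoforms that differ between tissues and with oxygen supply.

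Promoters of this gene set are known for sites of the factors NRF1, of the ETS family and of YY1, so 250 bases before the start site (RefSeq, GRCm38.p6, minus strand, 5' to 3') are shown for 4 members whose values recur below. Capitals mark the palindrome of 10 letters taken as an NRF1 match (spelled in the Cox6a1 and Atp5k lines) or CCGGAAG on either strand (ETS). The Cox6a1 promoter (complex IV, chr5:115348959-115349208) held an NRF1 match 162 bases and an ETS match 16 bases before the start site, and Atp5k (subunit e of the ATP synthase, chr5:108434400-108434649) an NRF1 match 50 bases before it. Sdhd (membrane anchor of complex II, chr9:50603850-50604099) held an ETS match 46 bases before it, and Ndufa4 (chr6:11907451-11907700) held neither.
Cox6a1: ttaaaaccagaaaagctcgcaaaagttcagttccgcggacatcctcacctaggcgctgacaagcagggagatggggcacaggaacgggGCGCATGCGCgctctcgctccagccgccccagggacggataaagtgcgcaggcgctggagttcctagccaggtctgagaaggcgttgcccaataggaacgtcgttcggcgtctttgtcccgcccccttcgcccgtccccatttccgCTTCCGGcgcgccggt
Atp5k: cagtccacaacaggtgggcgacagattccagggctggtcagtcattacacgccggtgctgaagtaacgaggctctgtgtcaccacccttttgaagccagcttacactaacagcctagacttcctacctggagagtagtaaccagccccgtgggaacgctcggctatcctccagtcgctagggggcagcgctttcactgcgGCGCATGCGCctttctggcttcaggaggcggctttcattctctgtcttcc
Sdhd: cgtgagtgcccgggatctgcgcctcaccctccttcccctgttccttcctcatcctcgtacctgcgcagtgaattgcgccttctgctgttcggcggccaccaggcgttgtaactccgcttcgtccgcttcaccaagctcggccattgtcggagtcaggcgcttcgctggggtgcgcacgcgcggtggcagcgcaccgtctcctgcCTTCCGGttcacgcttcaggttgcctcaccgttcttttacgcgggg
Ndufa4: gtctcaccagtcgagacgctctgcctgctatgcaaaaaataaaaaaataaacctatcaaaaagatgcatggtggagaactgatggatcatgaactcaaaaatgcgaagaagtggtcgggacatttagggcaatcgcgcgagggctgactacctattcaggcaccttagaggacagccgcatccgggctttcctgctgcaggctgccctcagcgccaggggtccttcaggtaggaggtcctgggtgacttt

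RefSeq held 80 promoters for 75 of the 93 members, read as 250 bases before and 50 after the start site on both strands. The NRF1 letters stood in 8.75% of them and in 0.971% of all 32851 promoters. The ETS letters stood in 23.8% against 8.86%, and the YY1 letters AAGATGGCG in 10.0% against 1.40%. At least one of these was present in 30 of the 80 (37.5%), against 10.8% of all promoters. The core of the hypoxia response element, ACGTG, was about as frequent in both, at 22.5% and 19.6%, and so was TATAAA, at 11.2% and 13.6%. A match is a description of letters, and no binding was measured.

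The 4 libraries held 3118 to 5703 barcodes and 7420674 to 95130645 UMIs, the counted molecules. KPCA.A stood apart in that 53.1% of its barcodes had more than 15% of UMIs from mitochondrial genes, where the others ranged from 5.42% (ascites) to 24.3% (KPCA.C). After filters, 2586 to 3098 cells were left per library, and 1456 to 2506 carried the markers of exactly 1 cell type. Pairs of libraries shared 0 to 19 cell barcodes. Enzymes of pancreatic acinar cells were present in every tumor cell type, all 8 markers in each, and were highest in KPCA.A: in macrophages they reached 2450 CPM (UMIs per 1000000 of the cell type and library) in KPCA.A, 696 in KPCA.B and 600.2 in KPCA.C, and were not detected in the ascites cells. Their part in the results was not tested. The levels that follow are of markers used to assign the cells, so they are no independent check of the types. Krt18 reached 966 to 1942 CPM in tumor epithelial cells, and Csf1r 528 to 546 in tumor macrophages and 182 in ascites macrophages. Col1a2 reached 3678 to 5026 in fibroblasts, Cd3e 547 to 896 in T cells and Jchain 15975 to 26750 in plasma cells. Epcam, another epithelial marker, was 277 and 412 CPM in tumor epithelial cells of KPCA.A and KPCA.B but 8.75 in those of KPCA.C, below the plasma cells of that library (108).

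All levels below are CPM over the genes shared by both annotations, summed over the cells of a type in a library, and are listed in the order KPCA.A, KPCA.B, KPCA.C. A CPM value is a share of a cell type's RNA, so fewer transcripts of a gene and more RNA of other kinds cannot be told apart. Intervals cover counting error only. Genes with processed pseudogene copies, common in this gene set, may share reads with them.

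Together the members took about 1 to 2% of the UMIs of most tumor cell types. In tumor epithelial cells they took 1.55%, 2.04% and 2.04%, in macrophages 1.66%, 2.18% and 1.86%, in fibroblasts 1.42%, 1.79% and 1.73%, and in T cells 1.37%, 1.55% and 1.57%. Plasma cells were lowest among the 5 tested types in each library, at 0.794%, 1.23% and 1.27%. Ascites macrophages, at 3.75%, lay above every tumor cell type. The 13 subunits encoded by mitochondrial DNA followed another order: KPCA.A was highest in each cell type (tumor cells 8.59%, 5.29% and 5.77%, macrophages 7.09%, 4.56% and 5.52%), and ascites macrophages, at 4.36%, were below the 3 tumor macrophage values. The filter at 15% mitochondrial UMIs acts on these 13 genes directly.

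**Figure D1:**
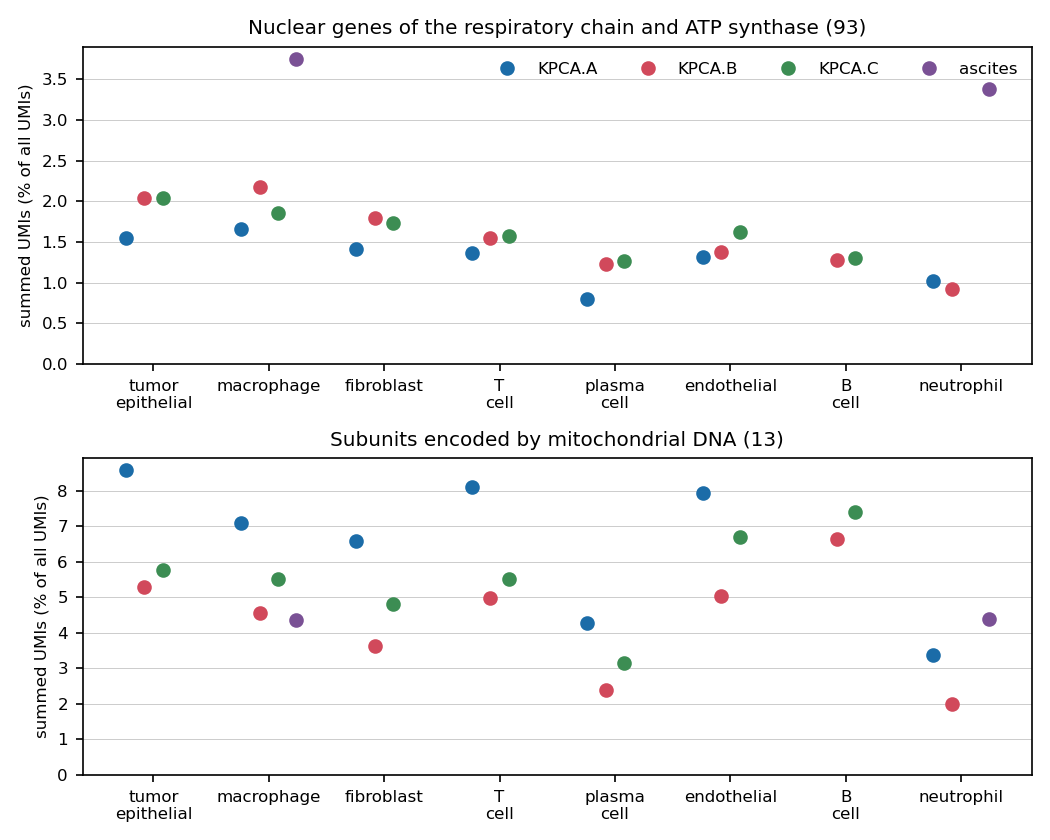
Share of UMIs (percent, vertical axis) in each cell type, with 1 point per library. The top panel shows the 93 nuclear members, the bottom panel the 13 mitochondrially encoded subunits. The nuclear members are lowest in KPCA.A in tumor cells, macrophages and fibroblasts (1.42% to 1.66%), where the mitochondrially encoded subunits are highest (6.60% to 8.59%), and ascites macrophages stand above the tumor macrophages for the nuclear members (3.75%) and below them for the mitochondrially encoded ones (4.36%).

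Cell types were compared over the 3 tumor libraries with edgeR's quasi-likelihood test, the library as a block and Benjamini-Hochberg adjustment over 13417 genes. The 3 libraries are 3 lines. The block takes out differences between libraries that all cell types share, so the spread left is in how cell types differ between lines. It was estimated from all tested cell types together in the same fit. Cox7b2, Cox8b and Cox8c had 0 UMIs in each tumor sum shown and were not tested, which left 90 members. The cell types differ in depth (median UMIs per cell 27399 to 57687.5 in tumor cells, 6251 to 12475 in macrophages, 20899 to 43760.5 in fibroblasts, 3134 to 5013 in T cells), and with every cell thinned to 1000 UMIs fewer members passed, as given at the end.

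After TMM scaling, which sets the cell types on a common level by the bulk of their genes, tumor epithelial cells were lower than macrophages for members of each complex. Of 90 members 36 were called lower and 5 higher, where 26.7% of all genes tested were lower and 27.5% higher. The members' median log2 ratio was -0.31, against 0.04 over all genes. The lower calls were 11 of 15 in complex IV, 3 of 4 in complex II and 3 of 8 in complex III. In the ATP synthase they were 7 of 17 and in complex I 12 of 38. Ndufa4, called higher, counts here as complex I by its symbol, though its protein is known from complex IV. Apart from complex I and its assembly factors no member was called higher. This split rests on the scaling: with library sizes alone, which moves the median of all genes to 0.38 and that of the members to 0.03, 17 members were higher and 16 lower.

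Atp5mpl, a small subunit of the membrane part of the ATP synthase, stood at 134, 213 and 177 CPM in tumor cells and 246, 385 and 314 in macrophages. Tumor cells were lower in each library and the groups did not overlap (log2 -1.20 ± 0.15 (SE), adjusted p = 1.31e-05, n = 3 libraries in edgeR's quasi-likelihood test, as for all p-values below). Uqcrh, the hinge subunit of complex III beside cytochrome c1, was 286, 466 and 275 CPM against 473, 573 and 532 (-0.99 ± 0.17, adjusted p = 0.000186), again without overlap. Cox6b1, which links the monomers of complex IV, was 243, 373 and 268 CPM against 344, 594 and 422 (-0.95 ± 0.14, adjusted p = 5.22e-05). It was lower within each library, although KPCA.B tumor cells lay above KPCA.A macrophages. The catalytic-part subunit alpha, Atp5a1, was 384, 418 and 325 CPM against 428, 662 and 426 (-0.75 ± 0.15, adjusted p = 0.000709). Complex I subunit Ndufv3, an accessory protein of the NADH-oxidising module, was 87.3, 146 and 140 CPM against 199, 248 and 268 (-1.31 ± 0.16, adjusted p = 8.7e-06). Of complex II, the anchor subunit Sdhc was 81.8, 78.5 and 71.8 CPM against 101, 122 and 107 (-0.85 ± 0.15, adjusted p = 0.000242). Its call was lost in cells thinned to 1000 UMIs (adjusted p = 0.267, lowest over 12 alternatives 9.24e-12), whereas those of Atp5mpl, Uqcrh, Cox6b1, Atp5a1 and Ndufv3 were kept under each of the 12 alternatives. Ndufv3, and below Ndufa7, Ndufaf2, Atp5k in fibroblasts, Ndufa1 and Ndufb9 in plasma cells and Ndufab1, were picked after their values were seen.

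The 5 members higher in tumor cells were Ndufa4, Ndufv1, Ndufa7, Ndufaf7 and Ndufaf2. Ndufv1, which binds NADH and the flavin, was 92.2, 94.4 and 85.6 CPM against 37.4, 56.4 and 39.8 in macrophages (0.70 ± 0.18, adjusted p = 0.00424). Without KPCA.A the adjusted p was 0.0648, the highest over 12 alternatives, and the lowest was 2.36e-05. Ndufa7, of the matrix arm, was 282, 436 and 358 CPM against 146, 198 and 187 (0.66 ± 0.16, adjusted p = 0.00253). Its call was lost without the replicate block, which pairs sums of the same library (adjusted p = 0.0763, lowest over 12 alternatives 5.22e-10). Ndufaf7, a methyltransferase that acts on complex I during assembly, was 24.99, 27.3 and 22.8 CPM against 9.44, 12.2 and 8.05 (0.9997 ± 0.26, adjusted p = 0.00547). Ndufaf2, a late assembly factor of complex I, was 30.3, 43.4 and 60.02 CPM against 20.5, 22.2 and 13.9 (0.87 ± 0.26, adjusted p = 0.0119), a call that rests on KPCA.C (log2 0.42 and adjusted p = 0.226 without it, 0.00119 to 0.226 over the alternatives). None of these tumor values overlapped with those of macrophages.

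On the same scaling fibroblasts were lower than macrophages for 37 of 90 members and higher for 4, where 25.8% of all genes were lower and 25.5% higher. The members' median log2 ratio was -0.22 (-0.05 with library sizes alone, where the median of all genes was 0.14). The lower calls included 12 of 17 in the ATP synthase, 9 of 15 in complex IV and 10 of 38 in complex I. That scaling gave 8 higher and 25 lower. Cox5a, a matrix-side subunit of complex IV, was 273, 288 and 300.3 CPM against 535, 597 and 433 in macrophages (-1.04 ± 0.21, adjusted p = 0.000908). The Rieske iron-sulfur protein of complex III, Uqcrfs1, was 75.5, 64.2 and 81.7 CPM against 114, 130 and 128 (-0.93 ± 0.21, adjusted p = 0.00227). Neither gene overlapped between the groups, though Uqcrfs1 was not called in thinned cells (adjusted p = 0.076, lowest over the alternatives 0.000687). Atp5k, whose promoter is printed above, was 120, 235 and 180 CPM in fibroblasts against 264, 406 and 259 (-1 ± 0.16, adjusted p = 0.000135), also without overlap. Lower shares in this and the other comparisons with macrophages use the same macrophage sums.

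Tumor cells and fibroblasts differed for fewer members: 5 were higher in tumor cells and 7 lower, where 13.2% and 15.7% of all genes were, and the median log2 ratio was -0.02. With library sizes alone 17 were higher and 5 lower. Ndufb8, an accessory subunit of the membrane arm of complex I, was 224, 244 and 236 CPM in tumor cells and 144, 149 and 143 in fibroblasts (0.52 ± 0.13, adjusted p = 0.00882). Atp5f1, the stalk subunit b of the ATP synthase, was 383, 463 and 481 CPM against 265, 262 and 309 (0.50 ± 0.14, adjusted p = 0.0157). Both were higher in tumor cells without overlap. Both calls were lost when any 1 library was left out: the adjusted p of Ndufb8 was 0.0644, 0.0574 and 0.184 without KPCA.A, KPCA.B and KPCA.C, and that of Atp5f1 0.0671, 0.126 and 0.183 (lowest over the alternatives 4.95e-05 and 0.00047).

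**Figure D2:**
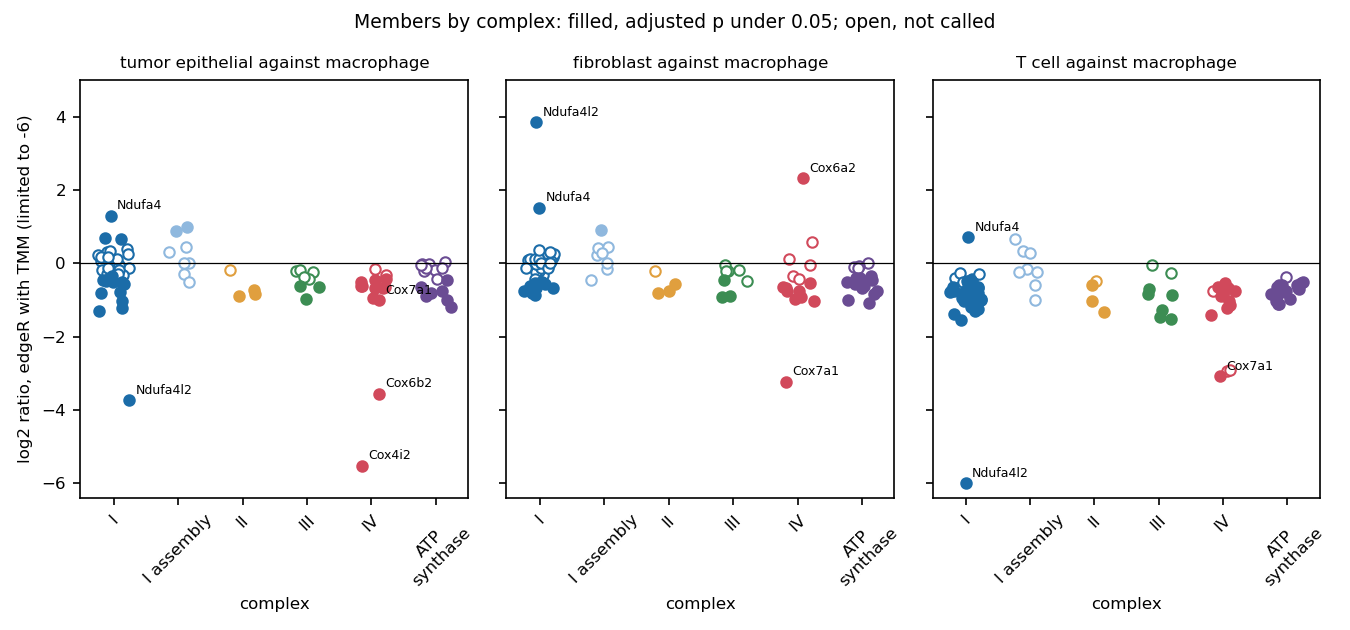
Log2 ratio (vertical axis) of each member in tumor epithelial cells, fibroblasts and T cells against macrophages from edgeR over 3 tumor libraries, by complex; filled points have an adjusted p under 0.05. Medians lie below 0 in each panel (-0.31, -0.22 and -0.77), Ndufa4 is above 0 in all 3, and the axis stops at -6, where the T cell value of Ndufa4l2, with 0 UMIs in T cells, is drawn.

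After TMM scaling T cells were lower than macrophages for most members. Of 90 members 68 were lower than in macrophages and 1, Ndufa4, was higher, where 22.9% of all genes were lower and 15.5% higher. The median log2 ratio of the members was -0.77, against -0.16 over all genes. The lower calls took 31 of 38 members of complex I, 16 of 17 of the ATP synthase, 12 of 15 of complex IV, 6 of 8 of complex III, 3 of 4 of complex II and none of the 8 assembly factors. With library sizes alone, where the medians of the members and of all genes were -0.37 and 0.22, 2 were higher and 31 lower. Uqcrb, the ubiquinone-binding subunit of complex III, was 84.7, 79.6 and 166 CPM in T cells against 182, 247 and 256 in macrophages (-1.52 ± 0.22, adjusted p = 0.000108). Cox5b, a zinc-binding subunit of complex IV, was 77.6, 199.5 and 210 CPM against 249, 403 and 333 (-1.41 ± 0.19, adjusted p = 6.56e-05). Atp5o, which joins the stalk to the catalytic part of the ATP synthase, was 148, 173 and 140 CPM against 221, 325 and 203 (-1.11 ± 0.19, adjusted p = 0.000367). Uqcrb, Cox5b and Atp5o did not overlap between the groups, and their calls held under each of the 12 alternatives. The KPCA.A T cell sum rests on 39 cells and carried the highest acinar level, 6259 CPM, against 1456 in KPCA.B and 1023 in KPCA.C. This comparison and that of plasma cells were added with the data in view.

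Plasma cells differed in both directions, but for no larger a part of the members than of all genes. Of 90 members 12 were higher than in macrophages and 19 lower, where 18.3% and 25.4% of all genes were. The plasma cell sums hold 31, 305 and 42 cells. By symbol 8 of the 12 higher ones, Ndufa4 among them, belong to complex I. That is 8 of 38 in this complex, near the share of all genes, and 4 of the 38 were lower. Library sizes alone gave 4 higher and 65 lower, with the members' median at -0.82 and that of all genes also at -0.82, against -0.15 and -0.14 after TMM scaling. Ndufa1, a membrane-arm subunit of complex I, was 94.8, 194 and 230 CPM against 83.9, 105 and 115 (1.41 ± 0.25, adjusted p = 0.000434). It was higher within each library, with overlap between libraries. Uqcr10, a small subunit of complex III, was 44.9, 110 and 89.8 CPM against 225, 406 and 254 (-1.16 ± 0.23, adjusted p = 0.00114), without overlap. In thinned cells its adjusted p was 0.0877, the highest over 12 alternatives (lowest 1.6e-05). Ndufb9 of complex I had 162, 199 and 211 CPM in plasma cells and 222, 230 and 214 in macrophages, lower within each library, yet was called higher after TMM scaling (0.46 ± 0.17, adjusted p = 0.0381). With library sizes alone its log2 was -0.21 and it was not called (adjusted p = 0.867, range over the alternatives 0.00533 to 0.867).

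Other mitochondrial genes were counted from lists. Against macrophages, tumor cells were higher for 8 and lower for 5 of 49 proteins of the large mitochondrial ribosomal subunit, and lower for 4 and higher for 1 of the 13 mitochondrially encoded subunits, where 27.5% of all genes were higher and 26.7% lower. Fibroblasts were lower for 9 of those 13 and higher for none (25.8% and 25.5% of all genes). T cells were lower for 21 of the 49 ribosomal proteins, 6 of 14 enzymes of the citric acid cycle and 12 of 14 glycolysis genes, with none higher (22.9% of all genes were lower and 15.5% higher). Among 13 regulators of mitochondrial biogenesis, the coactivators of the PGC-1 family stood opposite each other. Ppargc1a was 4.34, 15.6 and 3.13 CPM in tumor cells and 0, 0 and 0.0725 in macrophages (6.82, adjusted p = 5.63e-05, a fitted value that depends on the prior count). Ppargc1b was 1.62, 2.11 and 0.224 CPM in tumor cells against 21.0, 41.6 and 21.1 in macrophages (-4.94, adjusted p = 5.63e-06). Esrra, the nuclear receptor they bind, was 28.2, 21.5 and 14.5 CPM against 39.4, 44.6 and 34.7 (-1.26, adjusted p = 0.000126). Neither Ppargc1a, Ppargc1b nor Esrra overlapped between tumor cells and macrophages.

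Ndufa4 was called higher than in macrophages in tumor cells, fibroblasts, plasma cells and T cells, 4 comparisons that share the macrophage sums. Its symbol places it in complex I, but its protein is known as a subunit of complex IV. Macrophages held 92.8, 137 and 81.8 CPM of Ndufa4 (chr6:11900292-11907497, GRCm38, minus strand). Tumor cells held 253, 594 and 196 CPM (1.30 ± 0.23, adjusted p = 0.000268), and fibroblasts 253, 475 and 299 CPM (1.52 ± 0.23, adjusted p = 8.02e-05). Plasma cells held 157, 286 and 261 CPM (1.85 ± 0.24, adjusted p = 2.45e-05). None of these groups overlapped with macrophages, and the 3 calls held under each of the 12 alternatives. In T cells Ndufa4 was 141, 259 and 254 CPM (0.71 ± 0.24, adjusted p = 0.0321), and that call was lost under 6 of 12 alternatives: in thinned cells (adjusted p = 0.476), without the block (0.176), with at most 10% mitochondrial UMIs (0.0569) and without KPCA.A (0.0562), KPCA.B (0.0575) or KPCA.C (0.519). The lowest was 0.00432.

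The gene AA467197, which is not a member and was added after its values were seen, encodes an NDUFA4-like protein known to take the place of NDUFA4 in complex IV of inflamed macrophages. Macrophages held 1213, 625 and 1219 CPM of it and tumor cells 130, 20.6 and 280 (-3.85, adjusted p = 1.6e-05). Fibroblasts held 238, 21.6 and 224 CPM (-3.47, adjusted p = 4.21e-05), and plasma cells 14.97, 1.75 and 21.0 (-6.42, adjusted p = 1.52e-06). Of the UMIs of both genes, Ndufa4 thus made up 7.11%, 18.0% and 6.29% in macrophages and 66.1%, 96.7% and 41.2% in tumor cells. In plasma cells it made up 91.3%, 99.4% and 92.6%. KPCA.B had the lowest AA467197 and the highest Ndufa4 of the 3 lines in each of these cell types. Ascites macrophages held 318 CPM of Ndufa4, above the 3 tumor macrophage values, and 449 of AA467197, below them (41.5% Ndufa4). Neutrophils were on the side of macrophages, with 2033 CPM of AA467197 in KPCA.A and 979 in KPCA.B against 57.1 and 102 of Ndufa4. Over 24 sums of cell types in the tumor libraries, Spearman's rho between both genes was -0.585, a description, since sums share libraries and cell types.

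**Figure D3:**
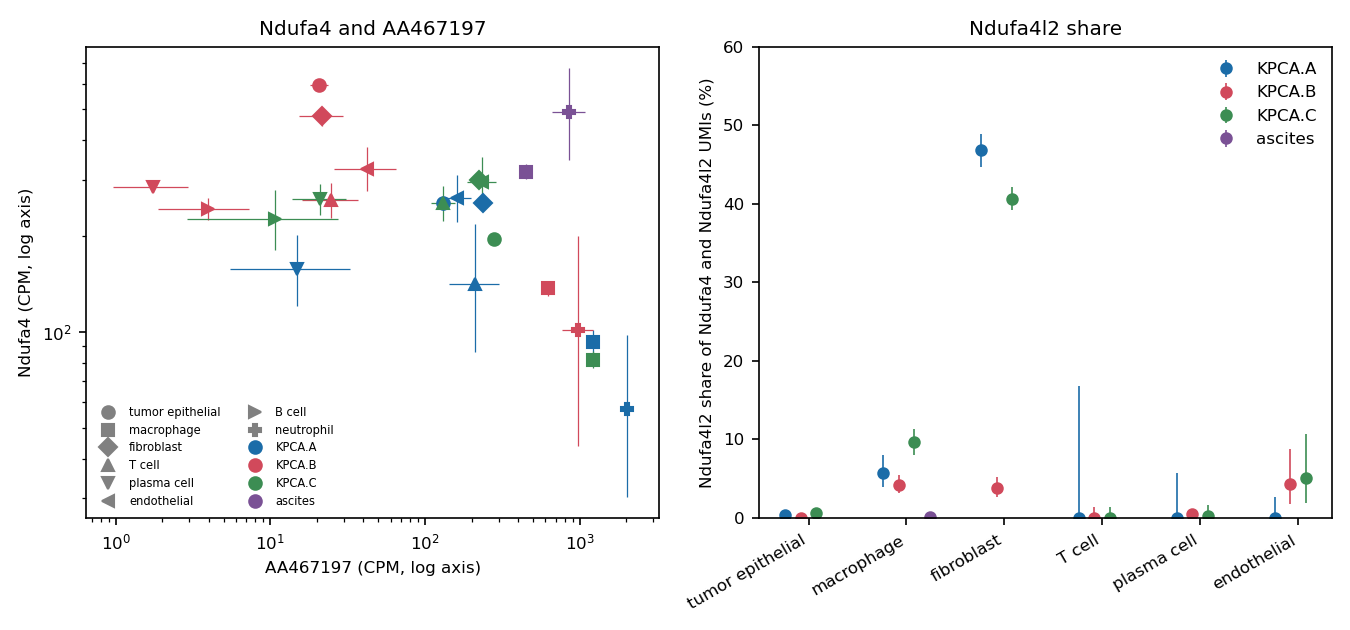
Left, CPM of Ndufa4 (vertical, log axis) against AA467197 (horizontal, log axis) for each cell type and library, with exact Poisson 95% intervals. Macrophages and neutrophils of the tumors lie at high AA467197 (625 to 2033) and low Ndufa4 (57.1 to 137). Right, share of Ndufa4l2 in the UMIs of Ndufa4 and Ndufa4l2 (percent) with exact binomial 95% intervals, where fibroblasts of KPCA.A (46.9%) and KPCA.C (40.7%) stand above the other points.

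The paralog Ndufa4l2 (chr10:127514967-127517154, GRCm38, plus strand), known as a target of the hypoxia-inducible factor, was largely a fibroblast transcript here. Fibroblasts held 224, 18.9 and 205 CPM, macrophages 5.70, 6.09 and 8.71, tumor cells 0.809, 0.0957 and 1.21, and T cells 0 in each library. Fibroblasts were higher than macrophages without overlap (3.85 ± 0.61, adjusted p = 0.000234), and tumor cells were lower than fibroblasts (-7.59 ± 0.70, adjusted p = 1.07e-05). Marker genes of fibroblasts summed to 49.9, 32.1 and 79.7 CPM in macrophages and 17601, 15216 and 18344 in fibroblasts, all 8 detected in both. In fibroblasts KPCA.B differed from both other lines: Ndufa4l2 made up 3.83% (2.68 to 5.28%, exact binomial) of its own and Ndufa4's UMIs there. In KPCA.A it made up 46.9% (44.8 to 49.0%), and KPCA.C had 40.7% (39.2 to 42.2%). The ratio of KPCA.B to KPCA.A was 0.0845 (0.0585 to 0.118, exact interval). Summed hypoxia-response genes moved with it, at 0.488%, 0.142% and 0.447% of fibroblast UMIs, and a part of either in the other was not tested. Fibroblast-gated cells with at least 2 of 5 pericyte markers (25, 9 and 36 cells, a split made after the values were seen) held 359, 46.8 and 248 CPM of Ndufa4l2, and the other fibroblasts 202, 14.0 and 195. KPCA.B was lowest in both.

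Cox4i2 (chr2:152754173-152765037, GRCm38, plus strand) is the isoform of subunit 4 linked to low oxygen, and Cox4i1 the common one. Cox4i2 was rare in tumor cells, at 0.162, 0 and 0.242 CPM, against 6.77, 0.664 and 12.4 in macrophages (-5.53 ± 0.72, adjusted p = 1.86e-05), a call held under each of the 11 alternatives in which it was measured. It was 10.2, 1.08 and 10.4 CPM in fibroblasts and 14.97, 10.97 and 15.4 in plasma cells. In the fibroblast-gated cells with pericyte markers, split as above, it was 17.8, 7.20 and 25.4 CPM, against 9.02, 0 and 6.98 in the others. The KPCA.B fibroblast value rests on 2 UMIs, both from the 9 cells with pericyte markers. KPCA.B was lowest in macrophages and fibroblasts, and the macrophage ratio of KPCA.C to KPCA.B was 18.7 (8.41 to 51.6), while plasma cells held similar levels in all 3 lines. Plasma cells were called higher than macrophages (2.54 ± 0.62, adjusted p = 0.0041), which was lost without KPCA.B (adjusted p = 0.0789) and without the block (0.145), the range over the alternatives being 0.000706 to 0.145. As a share of Cox4i1 and Cox4i2 UMIs, Cox4i2 was at most 3.06% (plasma cells, KPCA.A), so Cox4i1 made up nearly all of the pair throughout. That highest share rests on 6 UMIs of Cox4i2 in 31 cells.

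The heart and muscle isoform Cox6a2 (chr7:128205435-128206387, GRCm38, minus strand) was 11.3, 17.8 and 8.23 CPM in fibroblasts, against 1.60, 1.44 and 4.79 in macrophages (2.33 ± 0.64, adjusted p = 0.00746) and 0.906, 2.01 and 3.39 in tumor cells. The fibroblast values lay above both without overlap, but the call against macrophages was lost without KPCA.A (adjusted p = 0.0952), without KPCA.B (0.0511) and with the marker limits doubled (0.092), the lowest over the alternatives being 0.00176. Plasma cells held 14.97, 4.74 and 43.7 CPM (3.39 ± 0.67, adjusted p = 0.000992), overlapping with macrophages. The KPCA.A plasma cell value stands for 6 UMIs in 31 cells. The highest share of Cox6a2 in the Cox6a1 and Cox6a2 pair was in dendritic cells of KPCA.B, 35.3% (28.4 to 42.7%). Cells with 3 or more UMIs of Siglech, a marker of plasmacytoid dendritic cells, were looked at after this was seen. In KPCA.B all 15 such cells carried Cox6a2 (78.2 to 100%, exact binomial), 15 of 15 carried the related marker Ccr9, and their UMIs were 170 of Cox6a2 and 29 of Cox6a1 (85.4% Cox6a2, 79.7 to 90.0%). In KPCA.C both of 2 such cells carried it, and in KPCA.A the 1 such cell did not. The 14, 13 and 15 dendritic-gated cells without Siglech had 0 Cox6a2 UMIs beside 25, 106 and 70 of Cox6a1, which allows a share of up to 12.0%, 2.83% and 4.29%.

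Cox7a1 (chr7:30184144-30186078, GRCm38, plus strand), another isoform known from muscle, ran the other way. It was 4.81, 9.30 and 9.87 CPM in macrophages, 3.17, 6.89 and 5.11 in tumor cells and 0.651, 1.62 and 0.847 in fibroblasts. Fibroblasts were lower than macrophages (-3.23 ± 0.43, adjusted p = 2.6e-05), and tumor cells higher than fibroblasts (2.22 ± 0.43, adjusted p = 0.00147), both without overlap. Cox6b2, an isoform known from testis, was 0.421, 0.479 and 0.0746 CPM in tumor cells against 2.60, 7.55 and 5.20 in fibroblasts (-4.15 ± 0.79, adjusted p = 0.0014). The c ring of the ATP synthase is encoded by Atp5g1, Atp5g2 and Atp5g3, which give the same mature protein. Of their UMIs Atp5g1 held 31.8%, 42.2% and 46.3% in plasma cells, 32.4%, 41.8% and 32.1% in fibroblasts, 26.9%, 30.8% and 32.0% in tumor cells, 27.2%, 29.5% and 27.4% in macrophages and 23.4%, 22.8% and 18.4% in T cells. By these shares T cells were lowest of the 5 types in each library, and plasma cells and fibroblasts lay above macrophages. In KPCA.A the T cell and plasma cell shares rest on 39 and 31 cells, so their place in the order is uncertain there. The intervals of fibroblasts and tumor cells overlapped in KPCA.C (31.0 to 33.2% and 31.6 to 32.4%, exact binomial).

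Cycling cells, gated by proliferation markers, were set against the other cells of their type in the same library. In macrophages 11 of 88 members were higher in cycling cells and 2 lower, where 11.5% of genes were higher and 8.59% lower. Uqcr10 was 314, 532 and 381 CPM in cycling and 212, 368 and 247 in other macrophages (0.52 ± 0.09, adjusted p = 0.000446). Ndufab1, the mitochondrial acyl carrier protein, was 170, 145 and 159 CPM against 113, 102 and 117 (0.46 ± 0.11, adjusted p = 0.0041), and of the 3 members given here it was the one whose groups did not overlap. Ndufa4 was lower, with 72.9, 113 and 67.0 CPM in cycling and 95.7, 144 and 82.6 in other macrophages (-0.41 ± 0.12, adjusted p = 0.0211), a call lost without KPCA.A (0.0684) and without KPCA.B (0.155), with a range of 0.00759 to 0.704 over the alternatives. Cycling macrophages were also deeper, with a median of 13831 UMIs per cell against 5992 in KPCA.A, and thinned to 1000 UMIs 0 of 79 members passed in edgeR, with 4 at an unadjusted p under 0.05. DESeq2 called 2 of 88 members in unthinned cells. Ndufab1 had an adjusted p of 0.447 in thinned cells and 0.16 without the block (range 0.0019 to 0.447). The cycling sums hold 48, 90 and 30 macrophages. In tumor cells 1 of 87 members was higher in cycling cells and 1 lower (8.61% and 5.17% of genes were): Ndufaf2 was 37.1, 45.5 and 74.8 CPM against 23.4, 41.6 and 48.1 (0.50 ± 0.12, adjusted p = 0.0374), and Ndufv3 was 75.5, 127 and 111 CPM against 99.1, 163 and 162 (-0.44 ± 0.09, adjusted p = 0.0238). Both were lost without KPCA.A (adjusted p = 0.225 and 0.0903) and without KPCA.C (0.149 and 0.13), and the ranges over the alternatives were 0.00269 to 1 and 0.00117 to 1. Beside these, 8 of 19 genes of the hypoxia-response list and 2 of 14 of the glycolysis list were lower in cycling tumor cells. Of 49 proteins of the large mitochondrial ribosomal subunit 6 were higher, where 8.61% of all genes were higher and 5.17% lower.

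The lines were compared within a cell type by the ratio of 2 libraries, with 5 CPM added and at least 100 UMIs in the 2 sums together. These ratios have no replicate and no test, and a log2 ratio of 0.32, the limit used here, marks a member as above or below. In tumor cells KPCA.B was past that limit above KPCA.A for 40 of 86 members and below for 4, where 21.3% of all genes were above and 18.9% below. Members of complex IV (9 of 12 above, none below) and complex I (18 of 37 above, 1 below) led, and of the 4 members of complex II none was above and 1, Sdhd, below. KPCA.C was above KPCA.A for 41 of 87 and below for 2 (17% and 24.7% of all genes), whereas KPCA.C and KPCA.B split evenly, with 17 above and 16 below (22.7% and 31.5%). KPCA.A was thus the line with the low nuclear members in tumor cells, and its mitochondrially encoded subunits were high: 8 of 13 were lower and 1 higher in KPCA.B, and 9 lower and 1 higher in KPCA.C. KPCA.A is also the library with 53.1% of barcodes over the mitochondrial limit, whose part in this was not tested.

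The same comparison in other cells of the same tumors gave the following values, which share the libraries. In macrophages KPCA.B was above KPCA.A for 48 of 86 members and below for 1 (20.7% and 18.9% of all genes), and KPCA.C was above KPCA.A for 19 of 87 and below for 1 (9.88% and 11.6%). In fibroblasts KPCA.B was above KPCA.A for 39 of 83 and below for 4 (18.3% and 20.2%), and KPCA.C above KPCA.A for 31 of 87 and below for 2 (15.6% and 11.1%). The members' median log2 of KPCA.B over KPCA.A was 0.29 in tumor cells, 0.38 in macrophages and 0.29 in fibroblasts. Between KPCA.C and KPCA.B, macrophages had 4 members above and 35 below (17.5% and 24.2%), and fibroblasts 8 and 16 (25.9% and 19.6%). In T cells, with too few KPCA.A cells for many members, KPCA.C was above KPCA.B for 8 of 72 and below for 8 (19.7% and 17.2%). The glycolysis list did not follow the members: in KPCA.B over KPCA.A none of 15 was above and 12 were below in tumor cells, 1 above and 5 below in macrophages, and none above and 15 below in fibroblasts.

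**Figure D4:**
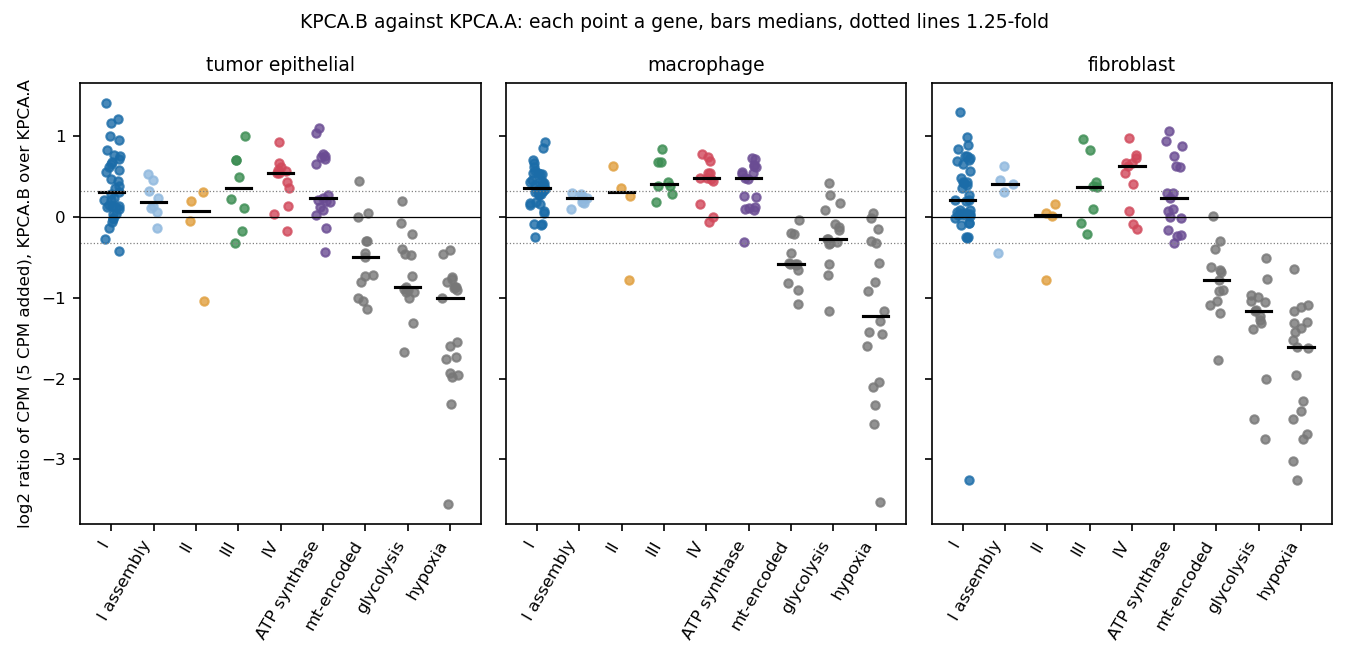
Log2 ratio of KPCA.B over KPCA.A (CPM with 5 added, vertical axis) for each member by complex, and for mitochondrially encoded, glycolysis and hypoxia-response genes, in tumor cells, macrophages and fibroblasts; bars are medians and dotted lines mark the limit of 0.32 in either direction. Members lie mostly above 0 (medians 0.29, 0.38 and 0.29) and the mitochondrially encoded subunits below (-0.50, -0.59 and -0.79).

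Several accessory subunits differed between the lines in tumor cells. Ndufc1 of complex I was 121 CPM in KPCA.A and 330 in KPCA.B, a ratio of 2.72 (2.59 to 2.85). Ndufa4 was 2.34 times higher in KPCA.B than in KPCA.A (2.27 to 2.42), and KPCA.C stood at 0.330 of KPCA.B (0.320 to 0.341). Ndufa1 was 41.1 CPM in KPCA.A and 110 in KPCA.C, a ratio of 2.67 (2.51 to 2.84), and Cox7b, a small subunit of complex IV, 173 and 400 CPM, a ratio of 2.32 (2.25 to 2.39). Against this direction Atp5g2 was 488 CPM in KPCA.A and 358 in KPCA.B (ratio 0.734), and Cox7a2l, which helps complexes III and IV to associate, was 446 CPM in KPCA.A and 315 in KPCA.C (0.707). In macrophages Ndufb2 of complex I was 71.2 CPM in KPCA.A and 140 in KPCA.B (1.97), and in fibroblasts Ndufa5, of the matrix arm, 54.7 and 142 (2.59).

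Sdhd (chr9:50596357-50603812, GRCm38, minus strand) was lowest in KPCA.B in each of the 5 cell types. It was 66.8, 30.0 and 82.0 CPM in tumor cells, 88.5, 49.5 and 89.3 in macrophages, 58.6, 31.8 and 58.1 in fibroblasts, 70.6, 33.1 and 50.4 in T cells and 29.9, 12.1 and 32.3 in plasma cells. The ratio of KPCA.B to KPCA.A was 0.449 (0.397 to 0.506) in tumor cells, 0.559 (0.491 to 0.636) in macrophages and 0.543 (0.403 to 0.722) in fibroblasts. The ratio of KPCA.C to KPCA.B was 2.74 (2.44 to 3.08), 1.81 (1.62 to 2.02) and 1.82 (1.39 to 2.43) in the same order. In fibroblasts the direction turned when each cell counted equally, to a log2 of 0.35 for KPCA.B over KPCA.A. No other subunit of complex II was past the limit between KPCA.B and KPCA.A in tumor cells.

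Members with short transcripts differed most between KPCA.B and KPCA.A. By the length of the principal transcript (GENCODE vM21, a split made after the values were seen), the median log2 in tumor cells was 0.68 for 18 members under 600 bases, 0.44 for 25 of 600 to 900, 0.16 for 22 of 900 to 1500 and 0.12 for 21 of 1500 or more. Other genes of the same lengths had medians of 0.51, -0.02, 0.00 and 0.02. In macrophages the members' medians were 0.45, 0.33, 0.29 and 0.38, against 0.29, -0.01, 0.03 and 0.02. In fibroblasts they were 0.66, 0.20, 0.12 and 0.05, against 0.53, 0.12, 0.01 and -0.02. The shortest transcripts of other genes were thus also higher in KPCA.B, and the members, with a median length of 861 bases against 2565 over all protein-coding genes, are short as a group. The part of length in the line difference was not tested.

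Ascites macrophages (1391 cells) had higher shares of most members than macrophages of each tumor. Against KPCA.A 57 of 81 were past the limit above and 6 below, against KPCA.B 54 of 84 and 15, and against KPCA.C 58 of 87 and 12. All genes went the other way: 16.1%, 15.5% and 13.5% were above and 63.7%, 64.7% and 63.7% below, with medians from -0.64 to -0.59. Scaled by the median of ratios, which takes this shift out, 75, 69 and 73 members were above and 0, 3 and 3 below. The shares of all genes just given are for unscaled ratios, and those under the median of ratios are not given here. Uqcrb was 1117 CPM in ascites and 182, 247 and 256 in the tumor macrophages, a ratio of 6.15 (5.74 to 6.59) to KPCA.A. Ndufa6 of complex I was 924 CPM against 168 in KPCA.A (ratio 5.497, 5.12 to 5.91), and Atp5l, subunit g of the ATP synthase, 2780 against 523, 761 and 601 (5.31, 5.10 to 5.54, to KPCA.A). Several large catalytic subunits did not share this. Atp5a1 was 289 CPM in ascites and 428, 662 and 426 in the tumors, Sdha, the flavoprotein of complex II, 79.5 against 113, 178 and 131, and Ndufs1, the largest iron-sulfur protein of complex I, 23.9 against 44.2, 54.4 and 44.6. Atp5a1 and Sdha turned to slightly above KPCA.A and KPCA.C under the median of ratios (log2 0.17 and 0.22 over KPCA.A), while Ndufs1 stayed below.

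Length separated these groups here too. In ascites over KPCA.B the median log2 was 1.04 for 18 members under 600 bases, 0.59 for 25 of 600 to 900, 0.44 for 20 of 900 to 1500 and -0.31 for 21 of 1500 or more, and other genes had 0.98, 0.23, -0.19 and -0.74. Members lay above other genes of their length in each range, by less in the shortest. The mitochondrially encoded subunits were lower in ascites for 11 of 13 against KPCA.A, 10 against KPCA.B and 10 against KPCA.C, and all 15 glycolysis genes were lower in each comparison. Citric acid cycle enzymes were lower for 10, 11 and 9 of 14 and higher for 1, 1 and 0. Of all genes 63.7%, 64.7% and 63.7% were lower and 16.1%, 15.5% and 13.5% higher, in the same order. Cell barcodes that begin with AAACCC occurred in the tumors alone and those with AAACCT in ascites alone, so the bead sets may differ, and the annotation versions did. Depth differed too, with a median of 2077 UMIs per kept cell in ascites against 7910, 7958 and 14660 in the tumors. Of the 2921 ascites cells kept, 1457 met the limits of no cell type. Fluid or solid site, age, depth, chemistry and annotation cannot be told apart in this comparison. Neutrophil markers summed to 1544 CPM in ascites macrophages against 48.3 to 97.4 in the tumors, all 7 detected in ascites, and macrophage markers to 5203 against 11231 to 14146, all 10 detected. Among the latter C1qa was 596 CPM against 2485 to 3532 and Lyz2 1743 against 3159 to 4854. The part of either list in the difference was not tested. The ascites neutrophils had a high share of members as well, 3.38% against 1.02% in KPCA.A and 0.926% in KPCA.B.

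**Figure D5:**
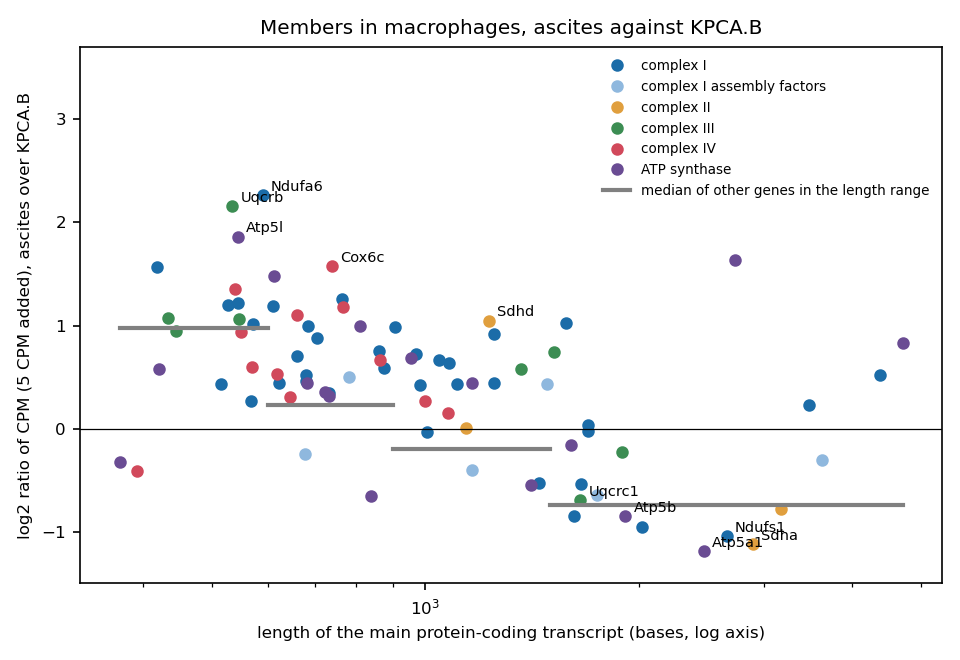
Log2 ratio of ascites over KPCA.B in macrophages (CPM with 5 added, vertical axis) against the length of the principal transcript (bases, horizontal axis) for each measured member by complex; grey lines give the median of other genes in each length range. Members under 600 bases lie at a median of 1.04 and those of 1500 bases or more at -0.31, with other genes at 0.98 and -0.74.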

How the data were processed

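Droplet 3' RNA libraries of 3 tumor lines and ascites were analysed. The values used are raw UMI counts, as deposited, from Cell Ranger 4.0.0 (tumors) and 3.0.2 (ascites) per the file headers, while the submitters' processing notes name Cell Ranger 3.1.0 and mm10. Gene identifiers, symbols and cell barcodes are the other values deposited. A cell was kept with 300 or more genes, 500 or more UMIs and no more than 15% mitochondrial UMIs. A cell was assigned to a type if it held 3 or more of its markers, past a limit on their UMIs per 10000, and to no other type. Cells of several types were left out, and no doublet caller was run. Gate limits were set after seeing the data, and the members and lists were chosen with earlier results of these data known.

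Sums over at least 30 cells were tested with edgeR 4.0.16 (R 4.3.3; TMM, filterByExpr, the library as a block, adjusted p under 0.05). The library block pairs sums of the same pooled tumors. Lines were compared as ratios with exact binomial intervals (scipy 1.17.1). The tests were checked on simulated counts in which a small set of genes was changed and cell types and lines were otherwise alike. Such counts cannot show how the tests fare where many genes differ. Members named are isoform pairs, core subunits and, per comparison and complex, those with the highest and lowest ratio; others were named after their values were seen, and 1 core subunit is not reported here. DESeq2 1.42.0, other scalings, filters, gates and thinned cells were alternatives. Separate cultures are not stated, so p-values measure how the differences within a library vary over these 3 libraries.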

Additional observations from a re-analysis of the deposited data

Results flagged for a closer look

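For 4 members the same 2 lines differed past the limit of 0.32 (log2) in opposite directions in 2 cell types. With 1 library per line, none of these differences between cell types was tested. The share of all genes that did the same is not given here, so the count is no result about the members.

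Ndufaf2, the late assembly factor of complex I, had a log2 of KPCA.C over KPCA.A of 0.88 in tumor cells and -0.43 in macrophages, a difference of 1.32. Against the same macrophage value, fibroblasts were higher in KPCA.C (0.60), a difference of 1.03. In KPCA.C over KPCA.B it was 0.42 in tumor cells and -0.53 in macrophages, a difference of 0.96. Ndufaf4, another complex I assembly factor, was 0.32 in tumor cells and -0.39 in macrophages for KPCA.C over KPCA.B, a difference of 0.71. In fibroblasts it was -0.52, a difference of 0.85 from tumor cells. Its tumor cell value, 0.3223, barely passed the unrounded limit of 0.3219. Cox5a of complex IV was 0.64 in tumor cells and -0.46 in macrophages for KPCA.C over KPCA.B, a difference of 1.09. Uqcr10 of complex III was 0.42 and -0.67 in the same comparison, also a difference of 1.09.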

How the results depend on the processing

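With cells thinned to 1000 UMIs the counts of called members were 28 for T cells against macrophages (69 as reported), 11 for tumor cells (41), 10 for fibroblasts (41), 0 for cycling macrophages (13), 1 for cycling tumor cells (2), 0 for tumor cells against fibroblasts (12), and for plasma cells 11 (31), with the balance turned to 6 higher and 5 lower. By construction thinned sums hold fewer UMIs. Library sizes alone gave 33 for T cells, 20 for cycling macrophages and 69 for plasma cells, and turned the balance in tumor cells against macrophages (33) and against fibroblasts (22). DESeq2 gave 2 for cycling macrophages, 2 for cycling tumor cells and 20 for tumor cells against fibroblasts. Marker limits doubled gave 1 for cycling tumor cells and, with the balance turned, 13 for tumor cells against fibroblasts (8 higher, 5 lower). With no replicate block, that is without pairing sums of the same library, the counts were 24 for tumor cells and 18 for plasma cells against macrophages, and 0 for cycling macrophages and cycling tumor cells. Leaving out each library in turn gave 47 to 57 for T cells, 27 to 32 for tumor cells and 22 to 31 for fibroblasts, lowest without KPCA.A and KPCA.C respectively, 18 to 25 for plasma cells, 3 to 7 for cycling macrophages, 0 to 8 for cycling tumor cells (8 without KPCA.B) and 5 to 6 for tumor cells against fibroblasts. At an unadjusted p under 0.05, edgeR's counts of 0 stood at 4 (cycling macrophages, thinned), 2 (cycling macrophages, no block), 0 (cycling tumor cells, no block), 5 and 4 (cycling tumor cells without KPCA.A and KPCA.C) and 7 (tumor cells against fibroblasts, thinned).

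Between lines, a fold of 1.5 left 26, 21 and 15 members in tumor cells (KPCA.B over KPCA.A, KPCA.C over KPCA.A, KPCA.C over KPCA.B), 18, 2 and 7 in macrophages and 27, 13 and 6 in fibroblasts. The shares of all genes at this fold are not given here. In tumor cells the even split of KPCA.C over KPCA.B turned with at most 10% (35) and at most 25% (33) mitochondrial UMIs. In fibroblasts thinning left 0, 8 and 3, the last with the balance turned, and a mean over cells turned KPCA.C over KPCA.B to 24 higher and 7 lower (31).

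Of single members, Ndufb9 and Ndufv1 in plasma cells turned to -0.21 and -0.16 with library sizes alone. A mean over cells turned Sdhd in fibroblasts to 0.35 (KPCA.B over KPCA.A) and -0.35 (KPCA.C over KPCA.B), and Cox6a2 to 0.25 in the latter. The median of ratios turned members lower in ascites macrophages: over KPCA.A Sdhc 0.18, Sdha 0.22 and Atp5a1 0.17, over KPCA.B Cox7a1 0.0561, Uqcrc1 0.0566, Atp5d 0.22 and Ndufv1 0.17, and over KPCA.C Sdhc 0.10, Atp5d 0.23, Atp5b 0.31, Sdha 0.0286 and Atp5a1 0.18. Apart from what the scaling or depth sets by construction, the cause was not tested. Of the other values of single members under alternatives, 3380 kept direction and call, 269 lost the call and 3 moved.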

Other observations

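Ucp1, the uncoupling protein that lets protons bypass the ATP synthase and is known from brown fat, was found in macrophages. It is not a member and was picked after its values were seen. In macrophages KPCA.A stood apart with 0.356 CPM, where KPCA.B had 59.2, KPCA.C 51.7 and the ascites 59.3. Tumor cells held 0, 0.191 and 0.280 CPM and fibroblasts 0, 0 and 0.726. The fat cell marker Adipoq had 0 CPM in macrophages of each library, but Plin1, a lipid droplet coat protein of fat cells, had 0, 6.97 and 3.41 CPM in the tumor macrophages and 2.24 in those of ascites. Plin1 was 0 in KPCA.A, where Ucp1 was low too, and 0 in each fibroblast and T cell sum. The part of fat cell material was not tested. The macrophage level lay above that of T cells, with 0, 0 and 3.02 CPM (log2 -5.58, adjusted p = 8.43e-06 by edgeR's quasi-likelihood test), although KPCA.A alone did not show the difference.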
